A study of Homo sapiens with 8 samples.

Results

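Glycerophospholipid metabolism, together with acetylcholinesterase (ACHE) and the phospholipase A2 genes, was followed here through 56 listed genes, of which 55 have a row among the 14526 genes of the deposited table. The list was drawn up from the pathway that the study named from these same libraries, so its counts are not independent evidence of that pathway. Choline kinase beta (CHKB) was not analysed here. RNA was sequenced from cells labelled HepG2, an established human line from a liver carcinoma, grown in DMEM with serum. The control group holds 4 replicates, and the SB group holds 4 replicates kept for 24 h in 10 mM sodium benzoate (SB), a food preservative. The series design calls the replicates biological. Both groups are the same single line with no genetic change named, so the spread between replicates is that of cultures of 1 line, and a vehicle for the controls is not given in the sources used here.

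Glycerophospholipids such as phosphatidylcholine and phosphatidylethanolamine are the main lipids of cell membranes. Cells build phosphatidic acid from glycerol 3-phosphate, turn it into diacylglycerol or CDP-diacylglycerol, attach the head group through the Kennedy pathway or the CDP-diacylglycerol branch, and exchange the acyl chains by cutting them off and putting others on. Phospholipases take the lipids apart, and ACHE, best known for splitting acetylcholine at synapses, stands in the same pathway map because it releases choline. Liver cells make large amounts of phosphatidylcholine for lipoproteins and bile, and also methylate phosphatidylethanolamine to obtain it.

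Values are RPKM, the reads of a gene per kilobase of its length and scaled to the reads of the library, and are printed in the order of replicates 1 to 4, with means as mean ± SD over n = 4. Reads on the 14526 genes ranged from 37010896 to 44903216 per library. Of 20 hepatocyte markers, 17, with albumin (ALB), alpha-fetoprotein (AFP) and APOA1 among them, have no row in the table, which goes against the label HepG2. The RPKM of TF, which does have one, ran from 0.167 to 0.211 in the controls and from 0.316 to 0.485 in the SB group, and that of CYP3A5 from 0.396 to 0.579 and from 0.835 to 0.895. All 6 neuronal and neuroendocrine markers have a row, with a sum of 101 to 110 RPKM in the controls and 63.4 to 65.1 in the SB group. NEFL, NEFM and SNCG fell, INA (5.29 to 9.10 RPKM) and SYP (6.01 to 6.87 RPKM) rose, and CHGA was at 0.295 and 0.296 RPKM. The 3 of 4 epithelial markers with a row sum to 56.7 to 66.9 and 70.2 to 71.3 RPKM. Of these, KRT8 rose (29.1 to 37.9 RPKM), CDH1 fell (0.87 to 0.54 RPKM) and KRT18 was at 33.9 and 32.3 RPKM. EPCAM has no row. Of 6 fibroblast and 4 leukocyte markers, 3 and 2 have a row, with sums of 6.14 to 8.32 and 2.09 to 2.34 RPKM in the controls and 6.07 to 6.29 and 2.18 to 3.14 in the SB group. Control replicate 1 stood apart from the other controls. Values without it are given for each gene of the set whose call changed and for some others. The part of the markers in the results was not tested, and neither was the cause of this replicate's difference.

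To see which of these genes responded to SB, the RPKM values of both groups, with 1 added and on a log2 scale, were fitted by limma, and p-values were adjusted over the 14526 genes by the Benjamini-Hochberg method. Most of the pathway moved, in both directions, as did most genes of the table, and the larger changes were rises. Some genes that activate choline and ethanolamine (CHKA, ETNK1, PCYT1B) or make and use diacylglycerol (LPIN1, LPIN3, DGKD) rose with ACHE. So did some that add acyl chains (AGPAT3, LPCAT1) or cut phospholipids (PLA2G15). Among genes with these same tasks, PCYT1A, CHPT1, DGKA, AGPAT2, GPAM, LPCAT3 and PLA2G4A fell. The falls of the set, led on this scale by GPD1L and PEMT, were smaller. Of the 55 genes, 24 (43.6%) rose and 14 (25.5%) fell at an adjusted p below 0.05, against 33.0% and 32.6% of all genes tested. The remaining 17 (30.9%) did not pass the test, and 2 of them had an unadjusted p below 0.05. A change of 0.5 or more on that scale was also reached by 10 of the genes called higher (18.2%), against 5.12% of all genes. By limma 0 were lower past that size, also at an unadjusted p below 0.05, against 5.45% of all genes. Voom on recovered reads gave 3, against 1183 of all 14526 genes. Because the logarithm is taken after adding 1, the log2 fold change is smaller than the log2 of the ratio for genes of low abundance, and the ratio of mean RPKM is given beside it for every gene that passed the test from a control mean under 2 RPKM, among others.

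All SB replicates were above all controls for 24 of the genes (43.6%) and below all controls for 12 (21.8%), against 31.0% and 30.5% of all genes. For each such gene the exact permutation test, two-sided, gave p = 0.0286, the smallest that 4 against 4 allows. The median log2 fold change was 0.07 over the 55 genes and 0.00 over all genes, and the median size without sign was 0.248 and 0.201. The log2 ratio of group means, without a pseudocount, had a median over all genes of 0.00 with the authors' TMM library factors and 0.11 without them. Without those factors, 31 of the 55 genes were called higher and 12 lower. The calls of the whole table moved as well. Of its 14526 genes, 6253 were then called higher and 3357 lower, against 4787 and 4740 with the factors. Since bulk RNA was measured, a lower level of a transcript in fewer cells and less of it per cell cannot be told apart.

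**Figure D1:**
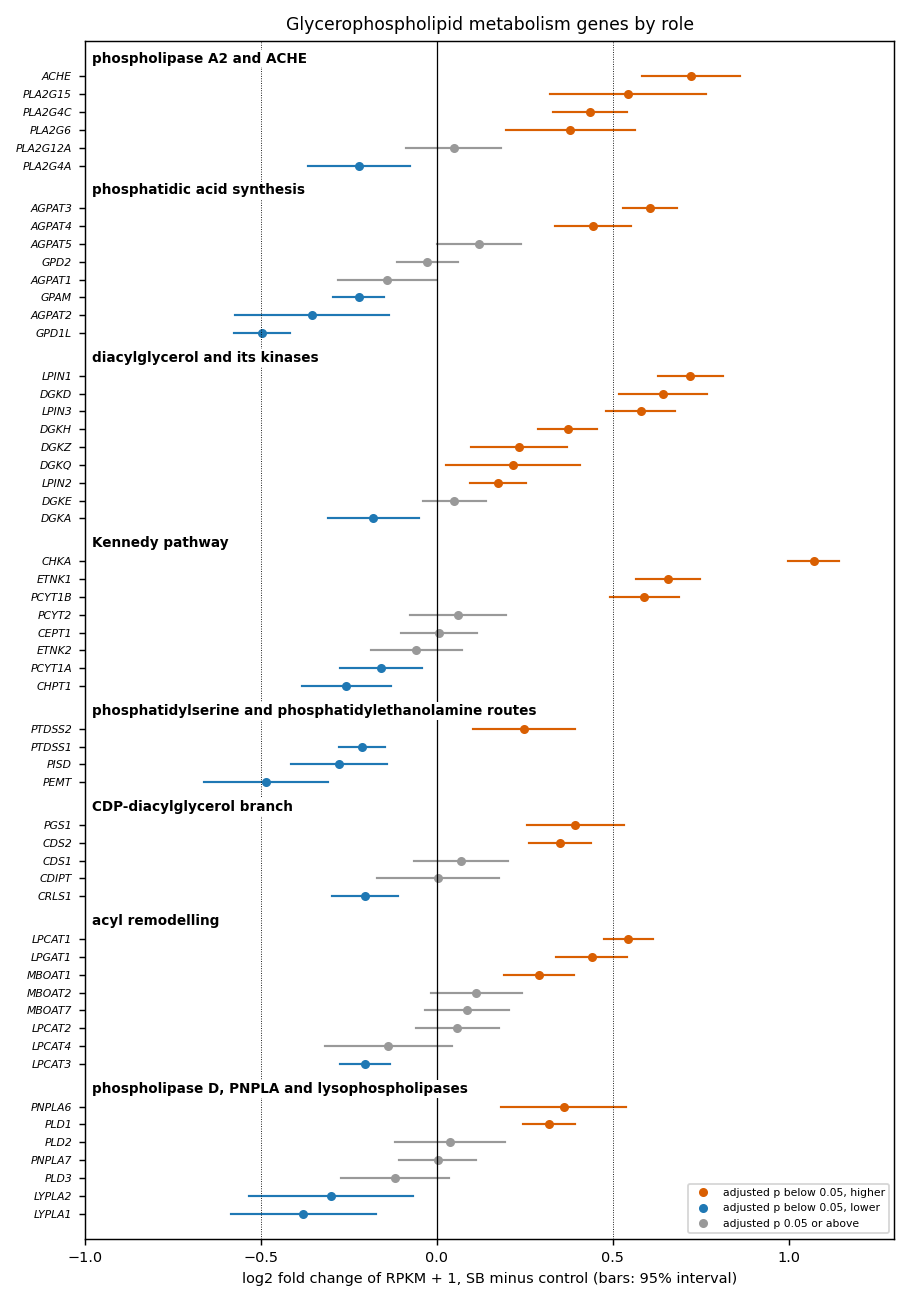
Log2 fold change of RPKM + 1 (SB minus control, horizontal axis) for the 55 genes, grouped by role, with 95% intervals from limma as bars and dotted lines at 0.5 in either direction. The 10 genes to the right of the upper dotted line include CHKA at 1.07, and no gene lies to the left of the lower one, with GPD1L just inside it at -0.50.

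Of ACHE and the 5 phospholipase A2 genes, 4 rose, 1 fell and 1 did not pass the test. The study had selected ACHE, PLA2G4C and PLA2G15 by ChIP-seq criteria and as raised in these same libraries, so their rise here is not independent evidence. It also reported a rise of each by RT-qPCR, which was not analysed here. ACHE (GENCODE release 44 on hg38, chr7:100889994-100896974, minus strand) lay at 0.891, 1.10, 1.31 and 1.03 RPKM in the controls and at 2.25, 2.57, 2.60 and 2.31 RPKM in the SB group. Every SB replicate was above every control, and the means of 1.08 ± 0.173 and 2.43 ± 0.177 RPKM give a ratio of 2.24. Its log2 fold change was 0.72 (95% interval 0.58 to 0.86, adjusted p = 8.59e-06), on a mean of 131 reads per control library and 313 per SB library.

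Phospholipases A2 release a fatty acid and a lysophospholipid from the middle position of a phospholipid. PLA2G15 (chr16:68245304-68261058, plus strand), the lysosomal enzyme, was at 4.15, 6.42, 5.64 and 6.15 RPKM in the controls and 8.36, 8.64, 8.53 and 8.49 RPKM with SB. The SB replicates sat close together above the controls, among which replicate 1 was the lowest. The means rose from 5.59 ± 1.01 to 8.51 ± 0.116 RPKM, 1.52 times, with a log2 fold change of 0.54 (0.32 to 0.76, adjusted p = 0.000897). Without control replicate 1 it was 0.43 (adjusted p = 6.3e-06), below the size of 0.5, and 9 genes of the pathway were then past it. PLA2G4C (chr19:48047843-48110817, minus strand), a membrane-bound relative of the cytosolic enzyme that needs no calcium, had 0.696, 0.772, 0.861 and 0.772 RPKM in the controls and 1.54, 1.41, 1.23 and 1.42 RPKM in the SB group. Those groups did not overlap, although the gene is among the least abundant of the set, with 78.5 and 150 reads per library on average. Its mean rose 1.81 times, a log2 fold change of 0.44 with the pseudocount of 1 (adjusted p = 3.33e-05) and of 0.78 with one of 0.1.

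PLA2G6, the calcium-independent enzyme linked to membrane upkeep in neurons, measured 2.38, 3.16, 3.60 and 3.15 RPKM in the controls and 4.09, 4.40, 4.42 and 4.16 RPKM with SB. The groups were separate and the ratio of means was 1.39 (log2 fold change 0.38, adjusted p = 0.00241). PLA2G4A, the cytosolic enzyme that frees arachidonic acid for eicosanoid synthesis, went the other way, from 1.71, 1.67, 1.26 and 1.28 RPKM to 1.07, 1.14, 1.16 and 1.12 RPKM. All SB replicates lay below the controls, which themselves split into a higher pair and a lower pair, the control mean was 1.32 times the SB mean, and the log2 fold change was -0.22 (-0.36 to -0.08, adjusted p = 0.0127). The secreted enzyme PLA2G12A was the most abundant of the family, at 16.7, 13.5, 14.1 and 13.8 RPKM and 15.3, 15.2, 14.8 and 14.7 RPKM. Its groups overlapped, with control replicate 1 above every other library, and the log2 fold change of 0.05 (-0.09 to 0.18) did not pass the test (adjusted p = 0.502). Without that replicate it was 0.11 (adjusted p = 0.00339).

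**Figure D2:**
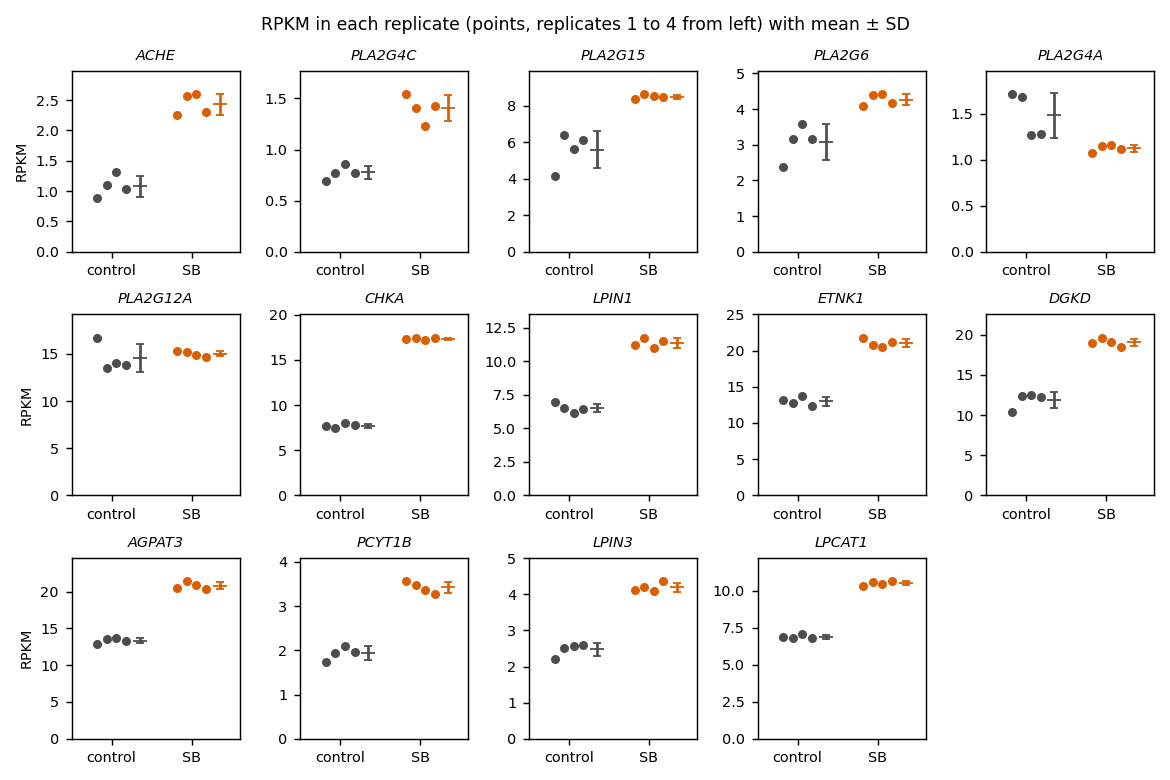
RPKM (vertical axes, each from 0) in the 4 control (grey) and 4 SB replicates (orange) for ACHE, the phospholipase A2 genes and the other genes past a log2 fold change of 0.5, with the mean and SD beside each group. In every panel but that of PLA2G12A the groups do not overlap, and PLA2G4A is the one panel in which the SB replicates lie below the controls.

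The sequences next to the RefSeq start sites of 4 genes that rose and of GPD1L, which had the largest fall in log2(RPKM + 1), are shown because genes of one pathway that move together can be compared at their promoters. Each run holds the 250 bases before the start on GRCh38.p14, written 5′ to 3′ along the gene's strand, with matches to the GC box letters GGGCGG and the CCAAT box letters CCAAT in capitals, whichever strand carries them. A RefSeq start need not be the one these cells used, and the GENCODE spans of ACHE, LPIN1, PCYT1B and GPD1L begin upstream of their windows. That of PLA2G15 begins at chr16:68245304, inside its window, so the end of that window lies within the span. The window of ACHE is chr7:100895889-100896138 on the minus strand, that of PLA2G15 chr16:68245123-68245372 on the plus strand and that of LPIN1 chr2:11746382-11746631 on the plus strand. The window of PCYT1B is chrX:24647348-24647597 on the minus strand and that of GPD1L chr3:32106370-32106619 on the plus strand.
ACHE: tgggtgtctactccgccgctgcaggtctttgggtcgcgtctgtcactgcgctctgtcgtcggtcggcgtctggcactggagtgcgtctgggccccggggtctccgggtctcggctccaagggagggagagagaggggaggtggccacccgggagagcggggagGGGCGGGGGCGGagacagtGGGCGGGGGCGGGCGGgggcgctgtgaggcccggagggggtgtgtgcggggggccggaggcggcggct
PLA2G15: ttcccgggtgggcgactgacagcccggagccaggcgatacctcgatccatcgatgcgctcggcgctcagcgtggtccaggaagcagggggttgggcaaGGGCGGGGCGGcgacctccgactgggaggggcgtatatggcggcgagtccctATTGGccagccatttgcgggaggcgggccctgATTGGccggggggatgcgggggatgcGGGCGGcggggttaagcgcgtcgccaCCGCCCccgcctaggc
LPIN1: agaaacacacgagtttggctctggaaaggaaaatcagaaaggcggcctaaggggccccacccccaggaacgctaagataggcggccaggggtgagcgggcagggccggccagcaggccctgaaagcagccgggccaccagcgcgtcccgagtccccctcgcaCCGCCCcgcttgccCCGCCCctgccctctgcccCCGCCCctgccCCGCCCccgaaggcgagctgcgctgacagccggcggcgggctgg
PCYT1B: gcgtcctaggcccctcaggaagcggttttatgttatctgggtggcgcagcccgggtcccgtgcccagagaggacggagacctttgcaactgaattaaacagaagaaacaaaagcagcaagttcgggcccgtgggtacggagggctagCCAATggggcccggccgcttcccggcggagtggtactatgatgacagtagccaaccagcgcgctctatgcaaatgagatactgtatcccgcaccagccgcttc
GPD1L: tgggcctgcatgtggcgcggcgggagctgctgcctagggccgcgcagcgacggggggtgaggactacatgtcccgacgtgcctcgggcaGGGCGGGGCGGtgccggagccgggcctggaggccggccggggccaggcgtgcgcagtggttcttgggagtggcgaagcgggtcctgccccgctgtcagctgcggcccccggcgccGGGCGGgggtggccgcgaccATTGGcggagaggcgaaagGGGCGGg
ACHE holds 5 GC box matches in runs that overlap or touch, PLA2G15 and LPIN1 hold 4 each, and PLA2G15 has 2 CCAAT matches. PCYT1B has 0 GC box matches and 1 CCAAT match, while GPD1L, which fell, has 4 and 1. These letters therefore occur on both sides of the change in level.

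A RefSeq window was found for 45 of the 55 genes. PLA2G4C, AGPAT5, LPIN3, CHKA, PTDSS1, LPCAT2, MBOAT1, PNPLA7, LYPLA1 and DGKQ were not matched. On either strand, the GC box letters were in 36 of the 45 windows (80.0%), against 70.5% of the 10651 genes of the table with a window and 43.7% of all 27305 windows. CCAAT was in 12 (26.7%), against 35.1% and 33.2%. The TATA box letters TATAAA were in 0, against 4.86% and 11.1%, and the E-box letters CACGTG were in 4 (8.89%), against 8.91% and 6.52%. Of the 8 genes past a log2 fold change of 0.5 with a window, 6 held the GC box letters and 3 CCAAT. AGPAT3, counted there with CCAAT and without a GC box, has a window 51565 bases from the start of its canonical GENCODE transcript. The windows of CRLS1 and DGKA lie 1126 and 248 bases from theirs. The windows had a median G + C content of 70.0% and 26 CpG dinucleotides, against 66.0% and 22 for the genes of the table. A match describes the letters and is no evidence of binding.

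Phosphatidic acid is made by adding acyl chains to glycerol 3-phosphate, and here 2 genes rose, 3 fell and 3 did not pass the test. AGPAT3 (chr21:43865223-43987592, plus strand), which adds the second acyl chain, was at 12.9, 13.6, 13.6 and 13.2 RPKM in the controls and 20.5, 21.4, 20.9 and 20.4 RPKM in the SB group. The groups were far apart against their spread, with means of 13.3 ± 0.351 and 20.8 ± 0.470 RPKM, a ratio of 1.56 and a log2 fold change of 0.61 (adjusted p = 9.23e-07). Its relative AGPAT4 rose from 7.54 ± 0.549 to 10.6 ± 0.203 RPKM (log2 fold change 0.45, adjusted p = 3.26e-05). AGPAT2, the family member whose loss causes a lack of fat tissue, fell from 30.2 ± 3.99 to 23.3 ± 2.22 RPKM (log2 fold change -0.35, adjusted p = 0.00939). GPAM, the mitochondrial enzyme of the first acylation, fell from 11.8 ± 0.135 to 9.97 ± 0.264 RPKM (-0.22, adjusted p = 0.000229).

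GPD1L, a relative of the cytosolic dehydrogenase that makes glycerol 3-phosphate, was at 16.9, 16.3, 15.9 and 16.9 RPKM in the controls and 11.5, 11.1, 11.8 and 11.3 RPKM with SB. Each SB replicate was below each control, the control mean was 1.45 times the SB mean, and the log2 fold change was -0.50 (-0.58 to -0.42, adjusted p = 2.95e-06). Before rounding it was short of the size of 0.5. The members that did not pass the test were AGPAT1 at -0.14 (-0.28 to -0.00), AGPAT5 at 0.12 (0.00 to 0.24) and the mitochondrial dehydrogenase GPD2 at -0.03 (-0.11 to 0.06), given as log2 fold change with the 95% interval. For AGPAT1 the length in the table, 16576 bases, is 4.61 times its GENCODE exon length, so its RPKM is low per base of transcript and the same length applies to all 8 libraries. AGPAT1 was 5.48, 6.81, 6.82 and 6.80 RPKM in the controls and 5.54, 5.79, 5.87 and 5.83 RPKM with SB, and without control replicate 1, the one low control, its log2 fold change was -0.21 (adjusted p = 6.9e-05). AGPAT5 without the same replicate was at 0.17 (adjusted p = 0.00126).

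Diacylglycerol is formed from phosphatidic acid by the lipins and turned back into it by the diacylglycerol kinases (DGK). Of these 9 genes 7 rose, 1 fell and 1 did not pass the test. LPIN1 (chr2:11677595-11827409, plus strand), a phosphatidic acid phosphatase that also acts as a coactivator of transcription in the nucleus, stood at 6.92, 6.51, 6.16 and 6.40 RPKM in the controls and 11.2, 11.7, 10.9 and 11.5 RPKM in the SB group. No SB replicate came near a control, and the mean rose 1.75 times, from 6.50 ± 0.319 to 11.3 ± 0.350 RPKM (log2 fold change 0.72, 0.63 to 0.81, adjusted p = 9.25e-07). LPIN3 gave 2.21, 2.52, 2.56 and 2.61 RPKM and 4.11, 4.21, 4.08 and 4.36 RPKM, again without overlap, with a ratio of 1.69 and a log2 fold change of 0.58 (adjusted p = 3.86e-06). LPIN3 shares 621 exon bases with EMILIN3 on the opposite strand, which also rose, by 0.80 on the log2 scale from 4.41 RPKM, and whether counting used the strand is not given in the sources used here. LPIN2 rose less, from 6.71 ± 0.264 to 7.70 ± 0.0788 RPKM (log2 fold change 0.17, adjusted p = 0.00174).

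DGKD (chr2:233354494-233472104, plus strand) was at 10.4, 12.4, 12.5 and 12.2 RPKM in the controls and at 19.0, 19.6, 19.1 and 18.5 RPKM with SB. Control replicate 1 was the lowest library, all SB replicates were above every control, and the means of 11.9 ± 0.997 and 19.1 ± 0.451 RPKM differed by a log2 fold change of 0.64 (0.52 to 0.77, adjusted p = 8.58e-06). DGKH, the closest relative of DGKD among the kinases, rose from 3.64 ± 0.152 to 5.01 ± 0.158 RPKM (0.37, adjusted p = 2.05e-05). The nuclear kinase DGKZ, the most abundant kinase here, rose from 18.1 ± 1.67 to 21.4 ± 0.502 RPKM (0.23, adjusted p = 0.00692). DGKQ moved from 3.55 ± 0.580 to 4.26 ± 0.153 RPKM (0.22, adjusted p = 0.0463), with control replicate 1 at 2.68 RPKM and the other controls from 3.82 to 3.86 RPKM. DGKQ lost its call when any SB replicate was left out, with the adjusted p up to 0.104, and with a pseudocount of 0.1 (0.0565), and without control replicate 1 its value was 0.12 (adjusted p = 0.00464). The calcium-regulated DGKA fell from 0.537 ± 0.105 to 0.356 ± 0.0733 RPKM (-0.18, adjusted p = 0.02), a control mean 1.51 times the SB mean and the largest fall of the set by that ratio, but its groups overlapped, the call was lost without control replicate 2 or SB replicate 4 (adjusted p up to 0.062), and its mean of 64.8 and 45.0 reads per library was the lowest in the set. DGKE, which prefers arachidonoyl diacylglycerol, did not pass the test, at a log2 fold change of 0.05 (-0.04 to 0.14). Without control replicate 1 it was at 0.08 (adjusted p = 0.0186).

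The Kennedy pathway activates choline or ethanolamine in 2 steps and joins it to diacylglycerol. Of 8 genes with a row 3 rose, each past a log2 fold change of 0.5, 2 fell and 3 did not pass the test. CHKA (chr11:68052859-68121444, minus strand), the choline kinase of the first step, had the largest log2 fold change of RPKM + 1 of the 55 genes. By voom on recovered reads ACHE stood slightly above it, at 1.18 against 1.17. CHKA was at 7.68, 7.48, 8.01 and 7.74 RPKM in the controls and 17.3, 17.4, 17.2 and 17.4 RPKM with SB. The replicates within a group were nearly alike and the groups far apart, and the mean rose 2.24 times, from 7.73 ± 0.221 to 17.3 ± 0.115 RPKM. Its log2 fold change of 1.07 (SE 0.0323, adjusted p = 6.15e-08) ranked 29 among the 14526 genes, counted from the largest rise.

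ETNK1 (chr12:22625075-22690665, plus strand), the kinase that does the same for ethanolamine, was at 13.2, 12.7, 13.7 and 12.3 RPKM and 21.8, 20.8, 20.5 and 21.2 RPKM. The SB replicates lay above the controls without overlap, at a ratio of 1.62 and a log2 fold change of 0.66 (adjusted p = 1.27e-06). Its relative ETNK2 did not pass the test with all libraries, at -0.06 (-0.19 to 0.07), and was at -0.12 (adjusted p = 0.00381) without control replicate 1. The second step for choline makes CDP-choline, sets the rate of the pathway and has 2 genes. PCYT1B was at 1.75, 1.95, 2.11 and 1.95 RPKM in the controls and 3.56, 3.46, 3.37 and 3.28 RPKM with SB. Its groups were separate, with a ratio of 1.76 and a log2 fold change of 0.59 (0.49 to 0.69, adjusted p = 3.44e-06). PCYT1A, the more abundant of the pair, fell from 14.3 ± 1.03 to 12.7 ± 0.476 RPKM (-0.16, adjusted p = 0.0215), a call lost without control replicate 3, SB replicate 2 or SB replicate 4 (adjusted p up to 0.064) and without TMM factors (0.305). For ethanolamine, PCYT2 did not pass the test (0.06, -0.08 to 0.20).

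At the last step, where the activated head group meets diacylglycerol, the choline-specific CHPT1 fell from 48.7 ± 4.07 to 40.5 ± 1.25 RPKM (-0.26, adjusted p = 0.00277). CEPT1, which takes both head groups, was at 25.1 ± 1.67 and 25.2 ± 0.581 RPKM (0.01, -0.10 to 0.11) and did not pass the test. EPT1, the ethanolamine-specific enzyme of this step and not among the 55 genes, fell from 23.1 ± 0.863 to 20.1 ± 0.365 RPKM (-0.19, adjusted p = 0.00119). It is named here for its step and is not among the 3 largest falls of the further pathway genes.

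Phosphatidylserine is made by exchange of head groups, decarboxylated in mitochondria to phosphatidylethanolamine, and in liver methylated to phosphatidylcholine. Of these 4 genes 1 rose and 3 fell. PEMT, the methyltransferase, was at 15.6, 19.6, 20.0 and 18.6 RPKM in the controls and 11.9, 13.9, 12.2 and 13.5 RPKM with SB. Every SB replicate was below every control, the control mean was 1.43 times the SB mean, and the log2 fold change was -0.48 (-0.66 to -0.31, adjusted p = 0.00045). PISD, the decarboxylase, fell from 8.46 ± 0.791 to 6.78 ± 0.277 RPKM (-0.28, adjusted p = 0.00272). PTDSS1, which uses phosphatidylcholine and was the most abundant gene of the set, fell from 65.4 ± 0.632 to 56.4 ± 0.314 RPKM (-0.21, adjusted p = 0.000164). PTDSS2, which uses phosphatidylethanolamine, rose from 11.7 ± 1.21 to 14.0 ± 0.359 RPKM (0.25, adjusted p = 0.00757).

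The CDP-diacylglycerol branch leads to phosphatidylinositol, phosphatidylglycerol and cardiolipin, and of 5 genes 2 rose, 1 fell and 2 did not pass the test. PGS1, which makes the precursor of phosphatidylglycerol, was at 5.98, 7.30, 7.17 and 7.58 RPKM in the controls and 9.78, 9.35, 9.58 and 9.22 RPKM with SB. The groups did not overlap, and the mean rose 1.35 times (log2 fold change 0.39, adjusted p = 0.000355). CDS2, a CDP-diacylglycerol synthase, rose from 9.11 ± 0.459 to 11.9 ± 0.172 RPKM (0.35, adjusted p = 4.38e-05). Its relative CDS1 was not called, at 0.07 (-0.07 to 0.20), and without control replicate 1 was at 0.13 (adjusted p = 0.0106). CRLS1, the cardiolipin synthase downstream of PGS1, fell from 12.0 ± 0.551 to 10.3 ± 0.375 RPKM (-0.20, adjusted p = 0.00194). CDIPT, the phosphatidylinositol synthase, was at 47.6 ± 5.57 and 47.5 ± 1.55 RPKM (0.00, -0.17 to 0.18) and did not pass the test.

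Lysophospholipid acyltransferases put new acyl chains on phospholipids that have lost one, and of 8 such genes 3 rose, 1 fell and 4 did not pass the test. LPCAT1 (chr5:1456480-1523962, minus strand), known for the saturated phosphatidylcholine of lung surfactant, was at 6.87, 6.81, 7.10 and 6.80 RPKM in the controls and 10.3, 10.6, 10.5 and 10.6 RPKM in the SB group. The replicates were tight and the groups apart, with a ratio of 1.52 and a log2 fold change of 0.54 (0.47 to 0.61, adjusted p = 9.42e-07). LPGAT1 rose from 21.1 ± 1.09 to 28.9 ± 1.09 RPKM (0.44, adjusted p = 2.31e-05) and MBOAT1 from 0.986 ± 0.0911 to 1.43 ± 0.0886 RPKM (ratio 1.45, 0.29, adjusted p = 0.00031). LPCAT3, which prefers polyunsaturated chains, fell from 23.9 ± 0.568 to 20.6 ± 0.219 RPKM (-0.20, adjusted p = 0.000368). It shares 3096 GENCODE exon bases with EMG1 on the opposite strand, which was also lower, at a log2 fold change of -0.38 from 38.5 RPKM. The length used for LPCAT3 is 2297 bases, so not all of the shared bases were counted for it. The 4 without a call were LPCAT2 at 0.06 (-0.06 to 0.18), LPCAT4 at -0.14 (-0.32 to 0.04), MBOAT2 at 0.11 (-0.02 to 0.24) and the inositol lipid acyltransferase MBOAT7 at 0.09 (-0.03 to 0.21). Without control replicate 1 LPCAT2 was at 0.11 (adjusted p = 0.0069), LPCAT4 at -0.22 (adjusted p = 0.00224) and MBOAT2 at 0.17 (adjusted p = 0.00234). For MBOAT7 the length in the table, 30890 bases, is 5.84 times its GENCODE exon length, so its level of 1.37 ± 0.170 RPKM in the controls is low per base of transcript.

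The last group holds genes named as phospholipases D, PNPLA enzymes or lysophospholipases, and of 7 genes 2 rose, 2 fell and 3 did not pass the test. LYPLA1, which also removes palmitate from proteins, was at 69.0, 51.8, 52.2 and 49.9 RPKM in the controls and 43.5, 43.2, 40.0 and 42.5 RPKM with SB. All SB replicates were lower than the controls, of which replicate 1 was far above the others, and the log2 fold change was -0.38 (-0.58 to -0.17, adjusted p = 0.00475) with that replicate and -0.27 (adjusted p = 7.48e-05) without it. LYPLA2 fell from 22.0 ± 3.57 to 17.5 ± 0.803 RPKM (-0.30, adjusted p = 0.0283), with overlap at control replicate 1, and without it the value was -0.42 (adjusted p = 5.96e-06). The call was lost without any other single library but SB replicate 2 (adjusted p up to 0.0779) and without TMM factors (0.126). PNPLA6, an esterase of phosphatidylcholine in nerve and other cells, rose from 6.38 ± 0.842 to 8.43 ± 0.431 RPKM (0.36, adjusted p = 0.0028). PLD1, which makes phosphatidic acid for signalling, rose from 2.58 ± 0.0809 to 3.47 ± 0.0882 RPKM (0.32, adjusted p = 2.66e-05). Its relative PLD2 was at 0.04 (-0.12 to 0.19), PLD3 at -0.12 (-0.27 to 0.03) and PNPLA7, the least abundant gene of the set, at 0.00 (-0.11 to 0.11), and none of these passed the test with all libraries. Without control replicate 1 PLD3 was at -0.18 (adjusted p = 0.00309).

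For reactions that several genes can carry out, the share of each gene in the summed RPKM of its family was also followed, as a description without a test. The 2 PCYT1 genes summed to 16.3 ± 0.973 RPKM in the controls and 16.2 ± 0.480 with SB, while PCYT1B made up 10.0%, 12.6%, 12.5% and 12.7% of it in the controls and 21.7%, 22.1%, 20.2% and 20.7% with SB. The share did not overlap between the groups. Counted in reads, not scaled to the library, the share of PCYT1B went from 33.3% to 49.8% and the sum from 1348 ± 96.0 to 1674 ± 119, every SB library being above every control. The RPKM sum was thus close in both groups and the read sum was not. The length used for PCYT1A is 1583 bases, 0.199 of its GENCODE exon length, against 5842 for PCYT1B. The lipins summed to 15.7 ± 0.389 and 23.2 ± 0.375 RPKM, with LPIN1 at 41.4% and 48.8% and LPIN2 at 42.8% and 33.1%. LPIN1 and LPIN2 were thus close to equal in the controls, and LPIN1 was ahead with SB. In the AGPAT family AGPAT2 went from 44.3% to 32.4% and AGPAT3 from 19.7% to 29.0%, of a sum of 67.9 ± 4.52 and 71.8 ± 2.46 RPKM. These shares rest on the lengths used, and that of AGPAT1, 16576 bases, is 4.61 times its GENCODE exon length. By RPKM AGPAT1 went from 9.52% to 8.02%. By reads it had the largest share in the controls and went from 29.85% to 22.98%. AGPAT2 went from 13.0% to 8.68% of the reads and AGPAT3 from 24.6% to 33.1%. Among the 6 diacylglycerol kinase genes, whose sum was 42.9 ± 2.92 and 55.5 ± 0.985 RPKM, DGKD went from 27.7% to 34.4% and DGKZ from 42.1% to 38.6%.

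**Figure D3:**
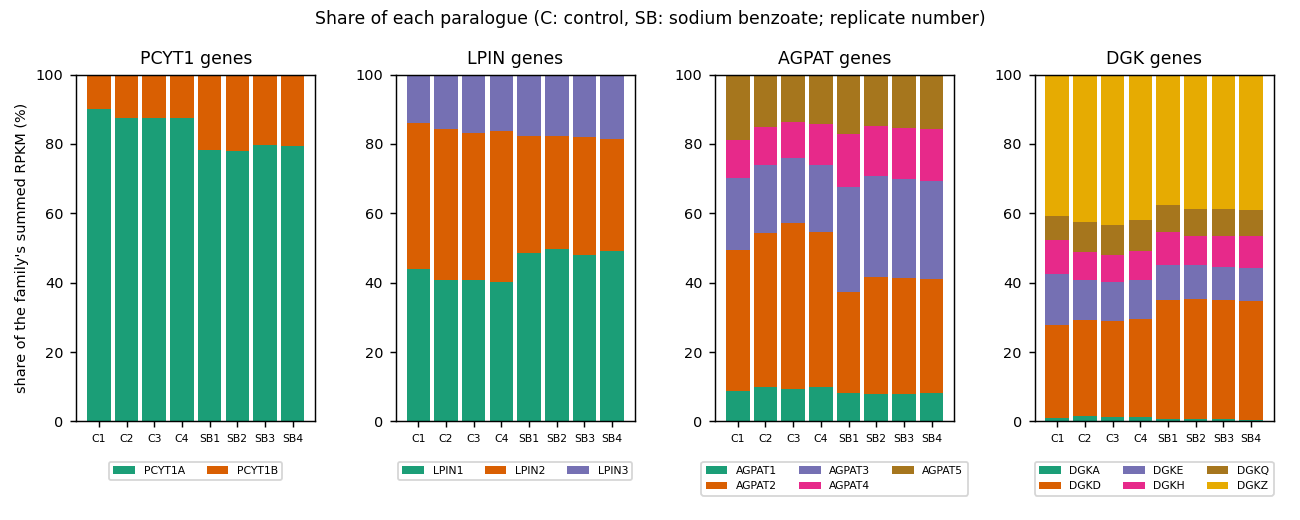
Share of each gene in the summed RPKM of its family (vertical axis, percent) in each of the 4 control (C) and 4 SB libraries. PCYT1B takes 10.0% to 12.7% of the PCYT1 sum in the controls and 20.2% to 22.1% with SB, and AGPAT3 and DGKD also widen in each SB library.

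In level the 55 genes ran from 0.346 RPKM (PNPLA7) to 65.4 RPKM (PTDSS1) in the controls, with a median of 8.91 against 8.30 over all genes, and 4 lay under 1 RPKM. The genes that rose had a median control level of 6.61 RPKM and those that fell one of 17.5 RPKM. Over all genes called the medians were 4.21 and 21.5 RPKM, so the order by level was the same. The lowest count of any of the 55 genes in a library was 39 reads, and the median over the genes was 1668 reads per control library. Short overlaps of 34 to 414 exon bases with a gene on the opposite strand that has a row of its own were found for PLA2G6 (MAFF), PCYT2 (ANAPC11), CEPT1 (DRAM2), PISD (SFI1), PGS1 (DNAH17), PLD3 (C19orf47) and DGKE (TRIM25), and without strand the reads of such pairs cannot be told apart there.

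**Figure D4:**
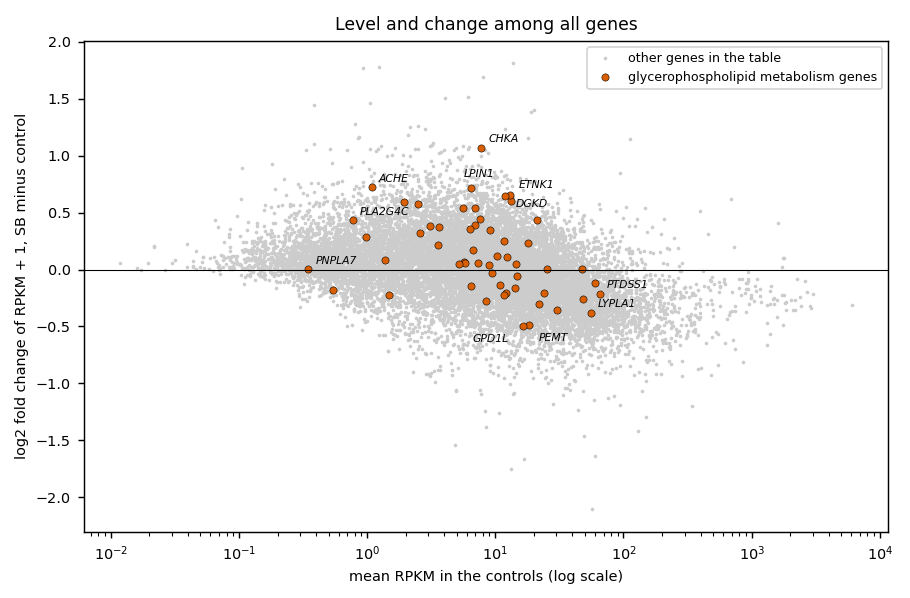
Mean control RPKM (horizontal axis, log scale) against log2 fold change of RPKM + 1 (SB minus control) for the 55 genes (orange) over the other genes of the table (grey). CHKA at 1.07 has the largest rise of the set on this scale, and abundant members such as PTDSS1 (65.4 RPKM) and LYPLA1 (55.7 RPKM) lie below 0.

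Control replicate 1 was the lowest control for 29 of the 55 genes and the highest for 19, and over all genes it was the lowest for 41.3% and the highest for 41.0%. Each of the other controls was lowest or highest for 18.1% to 21.4% of all genes. The 29 genes had a median G + C content of 60.0% in their GENCODE transcripts and the 19 one of 39.5%, and the genes called higher and lower had medians of 53.6% and 48.3%. Without this replicate 30 genes were called higher and 18 lower, while over all genes the calls rose to 37.6% higher and 37.9% lower. Past 0.5 were then 9 and 1 of the genes, the 1 being PEMT at -0.56, against 4.70% and 5.49% of all genes. The 10 genes that gained a call were PLA2G12A, AGPAT5, CDS1, LPCAT2, MBOAT2 and DGKE (higher) and AGPAT1, ETNK2, LPCAT4 and PLD3 (lower), with log2 fold changes between -0.22 and 0.17. Sizes also moved among genes that kept their call. For example, PLA2G6 went from 0.38 to 0.29, PNPLA6 from 0.36 to 0.28, DGKZ from 0.23 to 0.17 and AGPAT2 from -0.35 to -0.44. The part of base composition in these values was not tested.

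**Figure D5:**
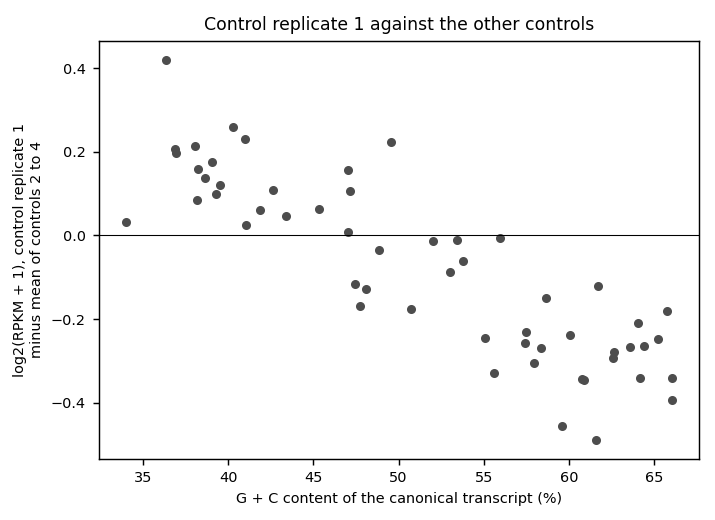
Difference of log2(RPKM + 1) between control replicate 1 and the mean of the other controls (vertical axis) against the G + C content of the transcript (horizontal axis, percent), 1 point for each of the 55 genes. The difference is above 0 for most genes of low G + C content, up to 0.42 for LYPLA1, and below 0 for those of high content, down to -0.49 for LYPLA2.

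Of 71 further symbols of the pathway, some of which are older and newer names of one gene, 40 have a row, and 15 of these rose (37.5%), 12 fell (30.0%) and 13 did not pass the test, against 33.0% and 32.6% of all genes called higher and lower. Past a log2 fold change of 0.5, 4 were higher (10.0%) and 3 lower (7.5%), against 5.12% and 5.45%. The largest rises in log2(RPKM + 1) were those of LCAT, which esterifies cholesterol in plasma (1.61 ± 0.323 to 2.99 ± 0.347 RPKM, log2 fold change 0.62, adjusted p = 0.000261), GDPD3, a lysophospholipase D (0.887 ± 0.101 to 1.86 ± 0.0641 RPKM, 0.60, adjusted p = 3.23e-06), and butyrylcholinesterase BCHE (3.20 ± 0.357 to 5.30 ± 0.243 RPKM, 0.59, adjusted p = 2.29e-05). BCHE is the closest relative of ACHE, and both cholinesterase genes rose. The fourth past 0.5 was PPAPDC3 (0.907 ± 0.141 to 1.79 ± 0.335 RPKM, 0.54, adjusted p = 0.000484), and by the ratio of means GDPD3 (2.10) and PPAPDC3 (1.97) stood above LCAT (1.85) and BCHE (1.66). The largest falls in log2(RPKM + 1) were those of PLD6, a phospholipase D of the outer mitochondrial membrane (8.39 ± 0.239 to 4.96 ± 0.108 RPKM, -0.66, adjusted p = 5.92e-07) and TAMM41, the CDP-diacylglycerol synthase upstream of PGS1 (6.17 ± 0.210 to 3.62 ± 0.106 RPKM, -0.64, adjusted p = 8.81e-07). LYPLAL1, a relative of LYPLA1, followed at -0.55 (17.8 ± 2.60 to 11.8 ± 0.322 RPKM, adjusted p = 0.000264). By the ratio of means ETNPPL (1.91) and MGLL (1.84), both at low levels and named after their values were seen, as was PPAPDC3, fell more than TAMM41 (1.71) and PLD6 (1.69).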

How the data were processed

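Total RNA of 4 control and 4 SB replicates was sequenced as 50 bp single reads from TruSeq Stranded Total libraries. The authors mapped the reads to hg38 with TopHat2 2.1.0, counted them per gene with featureCounts 1.5.0, dropped genes that did not exceed 1 CPM in 2 or more samples, and scaled libraries by TMM in edgeR 3.16.5, per the study's methods and the submitters' processing notes. The strand setting of the counting and the annotation release are not given in the sources used here. The authors deposited RPKM values per gene and library, whose depth is scaled out, and 1 mean log2 CPM value per gene. Their own columns of fold change, p-value and FDR were not used.

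Groups came from the sample titles. Gene by gene, log2(RPKM + 1) was compared with limma 3.58.1 in R 4.3.3 (lmFit, eBayes, all 8 samples, no covariate), adjusted over 14526 genes, and called at an adjusted p below 0.05. No filter was added. Single genes were also compared by an exact permutation test. Whole reads were recovered from the steps of the RPKM values for 100% of the genes, to within 0.002 reads, with the deposited log2 CPM settling 46 genes, and gave the depths of 37010896 to 44903216 reads. Counting error is part of the spread between replicates. The limma fit and the recovery were tested on simulated data. Positions came from GENCODE release 44 and promoter windows from RefSeq, read with Python 3.11.15.

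The 56 genes, the other pathway genes and the markers were chosen with earlier results of these data known. Values of all 8 samples are given for ACHE, the phospholipase A2 genes, genes past 0.5 and, in roles without one, the gene with the largest change. Of the other pathway genes the 3 largest rises and falls are named. EPT1, PPAPDC3, ETNPPL and MGLL are named outside that rule. Alternatives were a pseudocount of 0.1, no TMM factors, median-of-ratios scaling, a mean of at least 1 RPKM, the replicate number as a block, voom on the recovered reads, shares by reads, and leaving out each library. ChIP-seq and RT-qPCR data were not analysed here. The summed level of the hepatocyte markers is not reported here.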

Additional observations from a re-analysis of the deposited data

Results flagged for a closer look

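In 9 of 110 groups of 4 (55 genes in 2 groups each), 1 replicate lay far from the other 3, its gap to the nearest taking a share of the group's range above Dixon's 95% critical value for 4 samples. Chance marks about 1 in 20 groups, or 5.5 of 110. Control replicate 1 was the replicate concerned in 6 of the 9. It was lowest for AGPAT1 (0.984 of the range), DGKQ (0.971), LYPLA2 (0.927) and DGKD (0.892), and highest for LYPLA1 (0.86) and LPGAT1 (0.838). Control replicate 3 was lowest for PTDSS1 (0.939), where the 4 controls span only 64.5 to 65.8 RPKM. SB replicate 1 was lowest for PLD3 (0.872) and AGPAT2 (0.847). Without control replicate 1 the log2 fold change of DGKD was 0.59 and that of LPGAT1 0.47, close to their values of 0.64 and 0.44 with it, while that of DGKQ was 0.12 against 0.22. The cause was not tested.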

How the results depend on the processing

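Of the 38 called genes, 34 (23 higher, 11 lower) kept call and direction under each alternative that holds them, and the exceptions were PCYT1A, LYPLA2, DGKA and DGKQ. No called gene turned direction under the 15 alternatives. The number of genes past 0.5 moved more than the number called: over all genes 744 higher became 1609 with a pseudocount of 0.1, 1214 without TMM factors, 1820 with voom and 1801 with voom and the replicate block, and 792 lower became 416 without TMM factors and 1196 with voom and the block. Without TMM factors 6253 genes were called higher and 3357 lower, against 4787 and 4740. The median log2 ratio of group means over all genes, without a pseudocount, then shifted from 0.00 to 0.11. Among the 55 genes, 0 lower past 0.5 became 2 with a pseudocount of 0.1 (GPD1L and PEMT) and 3 with voom, with or without the block (also DGKA), and ranged from 0 to 1 when single libraries were left out. With the replicate block 25 were higher and 16 lower, adding AGPAT1, MBOAT2 and PLD3. Over all genes the block gave 4885 higher and 4894 lower. No other call changed under the block alone. The deviations of same-numbered replicates correlated across genes at 0.38, 0.327, 0.173 and -0.16, and not every replicate correlated best with its own number, so the numbers were not taken to pair the samples.

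Values that turned sign were all of genes without a call. Leaving out single libraries gave PCYT2 between -0.006 and 0.0902, CEPT1 between -0.0266 and 0.0467, CDIPT between -0.0808 and 0.0447, PLD2 between -0.0384 and 0.0775 and PNPLA7 between -0.027 and 0.0458, the lowest value coming without control replicate 1 in each but CEPT1. Without TMM factors ETNK2 was at 0.0407 and GPD2 at 0.0688. In shares of reads in place of RPKM, the differences were -16.5 percentage points for PCYT1A, 16.5 for PCYT1B, -6.87 for AGPAT1, -4.30 for AGPAT2, -0.27 for DGKA and 5.66 for DGKD, and AGPAT5 turned to -0.954, since gene lengths no longer divide the reads. Elsewhere the cause was not tested.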
